A study of Mus musculus with 2 samples.

Results

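Transcripts of 10 germ cell genes were examined in mouse embryonic stem cells (mESCs) whose inducible Xist had not been switched on. The genes were Dazl, Ddx4, Mael, Sycp1, Sycp3, Tex19.1, Taf7l, Rhox5, Tex11 and Mov10l1. They were taken by name as germline genes usually held silent by promoter methylation or by the repressor complex PRC1.6. The choice counted some of them as leaky in ES cells. All 10 were found among the 22556 genes of the count table. The cells were the female XX line iXist-ChrX-Dom (Dom/129S x Cast), which is 1 clone in which a TetOn promoter drives Xist from the Dom/129S X chromosome. The 2 replicates were collected at 0 h without doxycycline, so they form 1 group and no treatment is compared. The cells were grown in serum and LIF on mitomycin-inactivated fibroblasts, which were depleted by pre-plating before the experiment, and polyadenylated RNA was sequenced.

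Germ cell genes of this kind are transcribed in spermatogonia, oocytes or their precursors and are shut off in most other cells. Many have promoters rich in CpG, the dinucleotide at which DNA is methylated, and their silence in somatic tissue is known to depend on that methylation. In ES cells PRC1.6 is a further repressor of such genes, and it contacts DNA through MGA with MAX, which bind the E-box CACGTG, and through E2F6 with a DP partner, which bind sites with the core TCCCGC. Neither DNA methylation nor PRC1.6 binding was measured in these libraries.

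RefSeq promoters, 250 bases before to 50 after the start, were matched by symbol for 9 of the 10 genes (build GRCm38.p6) and were not for Tex11. The 9 promoters had a median of 20 CpG sites, against 7 over 32851 promoters of the same length. The bases before the start are shown for 6 of them, 5′ to 3′, with each CpG in capitals. Sycp3 and Dazl are shown as the genes with the highest mean transcript levels, Ddx4 and Rhox5 for the most and the fewest CpG sites, Tex19.1 as the gene with the lowest replicate 2 value relative to replicate 1, and Taf7l for the highest observed over expected CpG. The printed bases of Sycp3 lie at chr10:88459337-88459586 (plus strand), of Dazl at chr17:50293621-50293870 (minus strand), of Ddx4 at chr13:112652311-112652560 (minus strand), of Tex19.1 at chr11:121145893-121146142 (plus strand), of Taf7l at chrX:134476491-134476740 (minus strand) and of Rhox5 at chrX:37754358-37754607 (plus strand).
Sycp3: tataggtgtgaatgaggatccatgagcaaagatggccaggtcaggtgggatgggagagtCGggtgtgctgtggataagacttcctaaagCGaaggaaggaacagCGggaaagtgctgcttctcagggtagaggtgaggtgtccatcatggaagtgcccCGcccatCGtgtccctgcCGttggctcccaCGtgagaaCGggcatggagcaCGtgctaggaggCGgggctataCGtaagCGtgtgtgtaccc
Dazl: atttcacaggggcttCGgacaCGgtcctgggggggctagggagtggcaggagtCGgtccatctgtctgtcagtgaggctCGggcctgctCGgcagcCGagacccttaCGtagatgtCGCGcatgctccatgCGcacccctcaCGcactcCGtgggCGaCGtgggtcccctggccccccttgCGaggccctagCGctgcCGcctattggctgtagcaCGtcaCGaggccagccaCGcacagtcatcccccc
Ddx4: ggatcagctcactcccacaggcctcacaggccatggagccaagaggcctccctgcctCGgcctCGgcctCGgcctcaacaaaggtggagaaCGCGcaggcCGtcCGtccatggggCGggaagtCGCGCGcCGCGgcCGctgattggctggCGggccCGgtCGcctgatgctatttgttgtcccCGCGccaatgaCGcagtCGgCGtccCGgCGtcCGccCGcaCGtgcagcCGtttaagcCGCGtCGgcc
Tex19.1: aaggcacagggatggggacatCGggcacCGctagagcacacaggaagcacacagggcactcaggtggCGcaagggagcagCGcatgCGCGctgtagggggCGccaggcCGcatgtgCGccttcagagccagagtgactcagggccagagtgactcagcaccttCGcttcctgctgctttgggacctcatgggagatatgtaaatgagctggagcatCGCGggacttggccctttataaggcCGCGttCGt
Taf7l: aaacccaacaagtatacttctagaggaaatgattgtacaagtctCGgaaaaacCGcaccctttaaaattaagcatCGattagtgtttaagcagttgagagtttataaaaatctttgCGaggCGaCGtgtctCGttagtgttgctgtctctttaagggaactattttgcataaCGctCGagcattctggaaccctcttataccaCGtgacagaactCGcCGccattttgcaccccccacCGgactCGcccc
Rhox5: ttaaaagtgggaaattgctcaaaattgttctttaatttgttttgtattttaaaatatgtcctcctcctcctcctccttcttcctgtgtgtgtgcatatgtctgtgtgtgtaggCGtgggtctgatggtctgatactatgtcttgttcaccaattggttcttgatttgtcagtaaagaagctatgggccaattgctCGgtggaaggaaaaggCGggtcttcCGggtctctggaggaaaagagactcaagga

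Over the whole 300 bases, Ddx4 held 38 CpG sites, Dazl 28, Mael 24, Sycp1 21, Mov10l1 20, Taf7l 17, Tex19.1 16, Sycp3 15 and Rhox5 5. Rhox5 was therefore the only one of the 9 below the median of all promoters. The observed over expected CpG ratio ran from 0.363 in Rhox5 to 1.03 in Taf7l, and its median over all promoters was 0.384. The level of transcript did not follow the CpG number in this small set, since Sycp3 had the highest level per exonic length with 15 sites while Ddx4, with 38, was at rank 5.

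**Figure D1:**
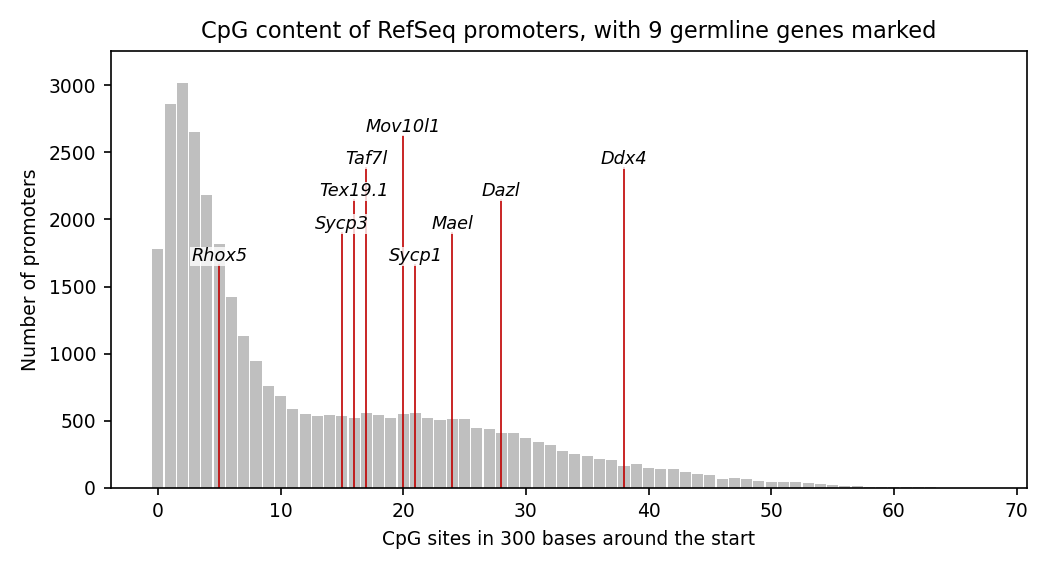
Number of RefSeq promoters (vertical axis) by their count of CpG sites in 300 bases (horizontal axis, grey bars), with a red line for each of 9 germline genes. The genes lie between 15 and 38 CpG sites except Rhox5, which has 5, and the height of a red line carries no value.

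An E-box CACGTG, searched on both strands, was found in 6 of the 9 promoters and in 7.15% of all promoters. Sycp3 held 2 of them, beginning at positions -64 and -43 from the start, Ddx4 held 1 at -29, Taf7l 1 at -49, Sycp1 1 at -94, Mael 1 at -223 and Mov10l1 1 at -246. In the printed promoters the E-box reads as a CpG in capitals between ca and tg. The core TCCCGC, on either strand, was found in 5 promoters (Sycp3, Sycp1, Ddx4, Mael and Tex19.1) and in 20.0% of all. In Tex19.1 it began at -33 and in Ddx4 at -136. Among the 11378 promoters with at least 15 CpG sites, a limit chosen after the members' values were seen, 11.3% held CACGTG and 45.4% held TCCCGC, and of the 8 members in that class 6 and 5 did. A further E2F-like core, CGCGAA, was found in 0 of the 9 and in 4.09% of all. The genes were picked as PRC1.6 and methylation targets, so these shares describe the list and test nothing.

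The libraries held 23716499 (replicate 1) and 20275749 (replicate 2) counted fragments. The 3 fragments that a count of 0 allows are worth 0.126 and 0.148 CPM, counts per 1000000. Levels are given as TPM, fragments per kb scaled to 1000000 per library. The first TPM used here divides by the deposited gene length, which spans introns, and a second TPM was computed with the exonic length of GENCODE M21. Comparing genes needs a length, and polyadenylated RNA is mostly exonic, so both values are given. All levels are averages over many cells, and a low level in every cell cannot be told apart from a high level in few of them.

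All 10 genes were transcribed above 1 TPM in each replicate with either length. Leaky transcription in ES cells was part of the choice of some genes, so the shares given here describe the list and test nothing. With the deposited length 52.7% of all genes reached a mean of 1 TPM, and 55.4% of the 22116 genes with an exonic length did so. A mean of 10 TPM was reached by 5 of the 10 genes with the deposited length, where the share of all genes was 29.6%, and by 9 of 10 with the exonic length, where it was 34.1%. Ddx4 stood at the limit with a deposited-length mean of 10.002 TPM. The median of the 10 genes was 9.55 TPM with the deposited and 34.0 TPM with the exonic length, and the medians of all genes were 1.35 and 1.85 TPM. Dazl, Sycp3 and Sycp1 together took 62.6% of the fragments of the 10 genes in replicate 1 and 73.0% in replicate 2.

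Among the RNA-binding and piRNA genes, Dazl, an RNA-binding translational regulator of germ cell fate, was the most abundant. It lies on chromosome 17 (mm10, 50279392 to 50293620, minus strand, 12 exonic blocks) and had 2766 fragments in replicate 1 and 3479 in replicate 2. Per exonic length this was 121 and 189 TPM, a mean of 155 ± 48.2 TPM (SD, n = 2), above 93.3% of genes. With the deposited length it was the highest of the 10, at 174 ± 60.3 TPM. Its germ cell relative Boll, which acts in meiotic cells, had 139 and 109 fragments, or 13.1 ± 0.232 TPM per exonic length. The ratio of Dazl to Boll was 9.11 in replicate 1 and 14.6 in replicate 2 on that scale, and with the deposited length the ratio of the means was 116.

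Ddx4 (Vasa) encodes a DEAD-box RNA helicase of the germ granule and is used as a germ cell marker. It lies on chromosome 13 (112598332 to 112652310, minus strand, 22 exonic blocks) and had 734 and 661 fragments, which gave 32.4 and 36.3 TPM per exonic length (34.4 ± 2.75, SD, n = 2). Its log2 ratio between replicates, 0.08 on the CPM scale, was the smallest of the 10. Ddx3x, a ubiquitous DEAD-box helicase, had 988 and 1294 TPM on the same scale and was 30.5 and 35.6 times higher. With the deposited length the mean of Ddx3x was 216 times that of Ddx4.

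Mov10l1 and Mael serve piRNA production, the first as a helicase that hands on piRNA precursors and the second in transposon silencing. Mov10l1 (chromosome 15, 88982993 to 89055152, plus strand, 27 exonic blocks) had 268 and 244 fragments and had the lowest mean of the 10 with either length, at 8.63 and 9.77 TPM per exonic length (9.20 ± 0.807). Its somatic relative Mov10 had 9.10 and 5.77 TPM, so that the ratio of Mov10l1 to Mov10 was 0.948 in replicate 1 and 1.69 in replicate 2. On this scale the order of the pair differed between the replicates. With the deposited length Mov10 was higher in both, at 7.30 and 4.89 TPM, and the ratio of the means was 0.451. Mael (chromosome 1, 166201384 to 166238744, minus strand, 12 exonic blocks) had 460 and 250 fragments, or 35.3 and 23.9 TPM (29.6 ± 8.10).

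Among the genes of meiotic chromosomes, Sycp3 stood first. It encodes a structural protein of the axial element of the synaptonemal complex, the scaffold between paired chromosomes, and Sycp1 encodes the transverse filament of the same structure. Sycp3 (chromosome 10, 88459586 to 88473236, plus strand, 8 exonic blocks) had 1786 and 2176 fragments. This gave 188 and 285 TPM per exonic length (237 ± 68.5, SD, n = 2), the highest of the 10 and above 95.8% of genes, and 115 ± 37.4 TPM with the deposited length. Sycp3 overlaps Chpt1 on the opposite strand at its 3′ end, and the counting was set to keep strands apart. No other member overlapped a second gene of the table on either strand. Sycp1 (chromosome 3, 102818498 to 102936100, minus strand, 33 exonic blocks) had 1167 and 1528 fragments, or 45.2 and 73.6 TPM per exonic length (59.4 ± 20.1). Of the 50-base words of its longest transcript, 3.69% also occur in the pseudogene Sycp1-ps1.

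Tex11 promotes crossing over in male meiosis and lies on the X chromosome (100838647 to 101059639, minus strand, 31 exonic blocks). It had 719 and 894 fragments. Its span of 220993 bp is 61.0 times its exonic length, so that it had 2.19 and 3.58 TPM with the deposited length and 26.4 and 40.8 TPM with the exonic length (33.6 ± 10.2, SD, n = 2). Among 908 X-linked genes its rank was 446 with the deposited length, and with the exonic length it was 275 of 889.

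Tex19.1, needed for meiotic synapsis and for control of retrotransposons in germ cells, is the short gene of the set. Its span on chromosome 11 (121146142 to 121148313, plus strand, 3 exonic blocks) is 1.24 times its exonic length. It had 369 fragments in replicate 1 and 116 in replicate 2, or 28.2 and 11.01 TPM per exonic length (19.6 ± 12.1, SD, n = 2). With the deposited length it had 115 and 47.3 TPM, and the replicate 1 value was the higher one by both measures. Its neighbouring copy Tex19.2 had 2 and 0 fragments, within the 3 that a count of 0 allows, and shared 2.95% of the 50-base words of the Tex19.1 transcript.

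Both transcription regulators are X-linked. Taf7l, a germ cell variant of the TFIID subunit TAF7, lies at 134460115 to 134476490 on the minus strand (14 exonic blocks). It had 244 and 245 fragments, or 16.2 and 20.3 TPM per exonic length (18.2 ± 2.85, SD, n = 2). The ubiquitous Taf7 had 305 and 275 TPM and was 18.8 and 13.6 times higher, and with the deposited length the ratio of the means was 115.

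Rhox5 (Pem) is a homeobox gene of the reproductive Rhox cluster, transcribed in the testis and also known from early embryos. It had 625 fragments in replicate 1 and 242 in replicate 2, and of the 10 genes it depended most on the gene model. In the count table it runs from 37754607 to 37808878 on the plus strand of the X, while the GENCODE basic transcript begins 50.2 kb further downstream and has 4 exons with 633 bases in all. The level was 7.76 and 3.95 TPM with the deposited length and 131 and 63.3 TPM with the exonic length (97.4 ± 48.2, SD, n = 2), so that Rhox5 was at rank 8 of 10 on the first scale and at rank 3 on the second. Its rank among X-linked genes was 397 and 156, respectively. The promoter printed above belongs to the upstream start, and the counts do not tell which start was used. The exonic length leaves out any exon of the upstream transcript, which makes 97.4 TPM an upper value if that transcript was made.

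**Figure D2:**
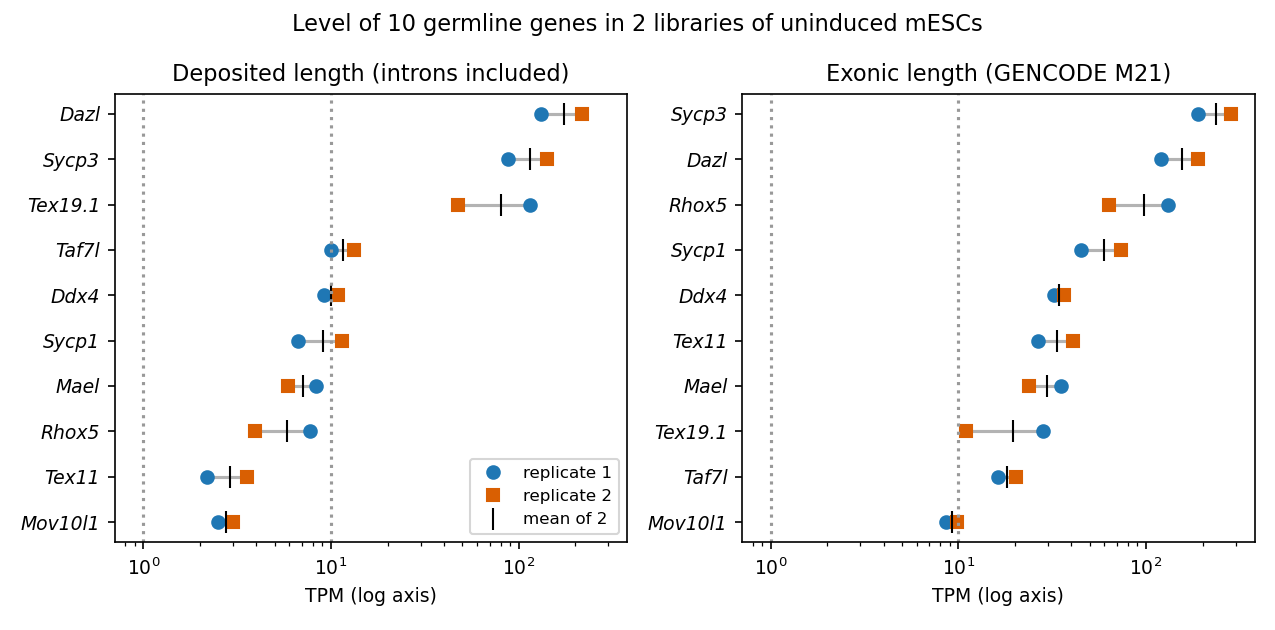
TPM of each gene (horizontal log axis) in replicate 1 (circles), replicate 2 (squares) and as their mean (ticks), with the deposited length on the left and the exonic length on the right, and dotted lines at 1 and 10 TPM. Every point lies above 1 TPM, Dazl and Sycp3 have the highest means in both panels, while in replicate 1 Tex19.1 lies above Sycp3 on the left and Rhox5 above Dazl on the right, and Rhox5 moves from 5.85 to 97.4 TPM between them.

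Most neighbouring genes in the order had replicate values that overlapped across the 2 libraries. From the top, the exonic-length order was Sycp3, Dazl, Rhox5, Sycp1, Ddx4, Tex11, Mael, Tex19.1, Taf7l and Mov10l1. For 7 of the 9 neighbouring pairs the replicate values overlapped across the libraries. They did not between Sycp1 and Ddx4 (1.73 times) and between Taf7l and Mov10l1 (1.98 times). Of the overlapping pairs, Sycp3 lay above Dazl within each library, at 188 over 121 TPM in replicate 1 and 285 over 189 TPM in replicate 2. Mael likewise lay above Tex19.1, at 35.3 over 28.2 TPM and 23.9 over 11.01 TPM. The other overlapping pairs changed order between the libraries. The deposited length gave the order Dazl, Sycp3, Tex19.1, Taf7l, Ddx4, Sycp1, Mael, Rhox5, Tex11 and Mov10l1. Here the separated neighbours were Tex19.1 and Taf7l (6.95 times) and Rhox5 and Tex11 (2.03 times). Of the overlapping pairs, Dazl lay above Sycp3, Taf7l above Ddx4 and Mael above Rhox5 within each library, and the others changed order. Tex19.1, whose span holds little intron, was at rank 3 with the deposited and at rank 8 with the exonic length.

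To ask how far the replicates differed, the fragments of every gene in both libraries were tested against the ratio expected from the library totals (exact binomial test, two-sided), and the p-values of 14536 genes with at least 10 fragments in total were adjusted by the Benjamini-Hochberg method. The test asks whether these 2 libraries differ beyond counting error and says nothing of a condition. Of the 10 genes, 4 were higher in replicate 2, 3 were lower and 3 did not pass. Over all genes tested, 15.1% were higher in replicate 2 and 45.7% lower.

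Cell type markers were compared between the same libraries by the same test, to be read against 45.7% of all genes lower in replicate 2 and 15.1% higher. Of 12 ES cell markers 10 were lower in replicate 2, 1 was higher and 1 did not pass. Pou5f1, a core pluripotency factor named after its values were seen, had 1129 fragments in replicate 1 and 142 in replicate 2 (log2 ratio of CPM -2.76, adjusted p = 2.41e-157, exact binomial test). Of 7 primordial germ cell markers 4 were lower, 0 higher and 3 did not pass. Among markers with enough fragments, 3 of 6 late germ cell and 2 of 5 fibroblast markers were lower and 0 higher. In the ES cell list more markers were lower than higher under each scaling, though by differing numbers. In the primordial germ cell list the direction depended on the scaling. With TMM-scaled library sizes, where 27.0% of all genes were higher and 30.8% lower, 8 ES cell markers were lower and 3 higher and 2 primordial germ cell markers were lower and 2 higher. With DESeq2 size factors, where 31.6% of all genes were higher and 26.1% lower, 6 ES cell markers were lower and 4 higher, and 2 primordial germ cell markers were lower and 3 higher. Against a GC trend fitted on autosomal genes, where the shares were 24.0% and 21.6%, 6 ES cell markers were lower and 3 higher, and 2 primordial germ cell markers were lower and 4 higher. Under these 3 scalings 2 or 3 late germ cell markers were lower and 1 higher, and 1 fibroblast marker was lower and 0 higher. What the change of these markers has to do with the germline genes was not tested.

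The genes higher in replicate 2 were Dazl, Sycp1, Sycp3 and Tex11. Their log2 ratios of CPM, replicate 2 over replicate 1, were 0.56, 0.61, 0.51 and 0.54, and their adjusted p-values in the exact binomial test ran from 3.68e-13 for Tex11 to 5.88e-51 for Dazl. Among 9736 genes with at least 50 fragments in each library, whose median log2 ratio was -0.17 with an SD of 0.53, these 4 ratios lay between percentiles 97.8 and 99.3. The genes lower in replicate 2 were Tex19.1 (log2 ratio -1.44, adjusted p = 7.06e-23, exact binomial test), Rhox5 (-1.14, adjusted p = 6.22e-27, the same exact test) and Mael (-0.65, adjusted p = 1.81e-08, the same exact test). Tex19.1 was at percentile 3.50 of the same genes, Rhox5 at 7.31 and Mael at 21.05. Ddx4 (0.08), Mov10l1 (0.09) and Taf7l (0.23) did not pass.

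The direction went with the GC content of the transcript. The 4 genes higher in replicate 2 had 34.3 to 39.7% GC and the 3 lower ones 44.9 to 52.6%, with Ddx4 at 43.1%, Taf7l at 43.9% and Mov10l1 at 49.9% between or among them. Against a GC trend fitted on 9232 autosomal genes, 5 genes were higher in replicate 2, 3 were lower and 2 did not pass, where 24.0% of all genes were higher and 21.6% lower. The ratios shrank to 0.23 for Dazl, 0.25 for Sycp1, 0.15 for Sycp3 and 0.32 for Tex11, and to -0.84 for Tex19.1, -0.61 for Rhox5 and -0.56 for Mael, and all 7 still passed. Mov10l1 came to pass at 0.53. With TMM-scaled library sizes every log2 ratio moved up by 0.22, and 7 genes were higher and 3 lower, where 27.0% and 30.8% of all genes were. What GC content has to do with the difference was not tested.

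**Figure D3:**
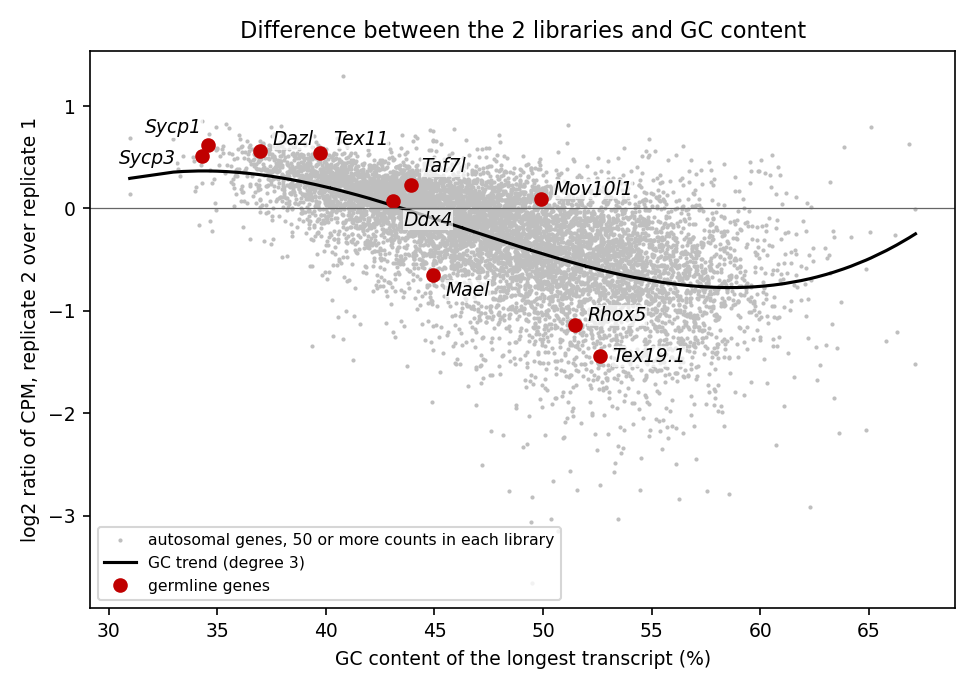
Log2 ratio of CPM between the replicates (vertical axis) against the GC content of the longest transcript in percent (horizontal axis), with autosomal genes in grey, their fitted trend in black and the 10 germline genes in red. Sycp3, Sycp1, Dazl and Tex11 lie above the trend at low GC content, and Ddx4, Taf7l and Mov10l1 lie above it at 43.1, 43.9 and 49.9% GC. Mael, Rhox5 and Tex19.1 lie below it at 44.9, 51.5 and 52.6% GC.

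Further germline genes were read from lists. The genes named from each list below are its 3 highest by mean TPM with the deposited length, which need not be the highest per exonic length. The counts at 1 TPM are to be read against 52.7% of all genes with the deposited and 55.4% with the exonic length. Of 15 further piRNA pathway genes, 7 (46.7%) reached 1 TPM with the deposited length and 11 (73.3%) with the exonic length. Tdrd12, a tudor protein of piRNA amplification, had 95.7 and 83.3 TPM per exonic length, Pld6 had 15.7 and 9.61 TPM and Tdrd5 had 10.4 and 8.81 TPM. Of 21 meiotic genes, 17 (81.0%) reached 1 TPM with the deposited and 18 (85.7%) with the exonic length. Per exonic length Tex15, a germ cell protein of transposon silencing and recombination, had 27.3 and 42.6 TPM, Syce2, of the central element of the synaptonemal complex, 194 and 84.0 TPM, and Dmc1, the meiotic recombinase, 182 and 201 TPM. The median of the piRNA list was 3.83 TPM and that of the meiotic list 9.67 TPM per exonic length, beside 1.85 TPM for all genes.

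Of 11 other Rhox genes, 5 (45.5%) reached 1 TPM with either length and 4 had no fragment in either library. Rhox6 had 60 fragments in replicate 1 and 15 in replicate 2, or 5.18 ± 3.85 TPM per exonic length (SD, n = 2). Rhox9 had 48 and 8 fragments, or 1.55 ± 1.44 TPM, and Rhox10 had 29 and 12 fragments, or 3.83 ± 1.74 TPM. Rhox5 was 16.6 and 25.7 times higher than Rhox6 on this scale in replicates 1 and 2, but with the deposited length the mean of Rhox6 was 1.64 times that of Rhox5. Of the 5 of these genes with enough fragments to test, 3 were lower in replicate 2, 0 were higher and 2 did not pass, where 45.7% of all genes were lower. The lower ones were Rhox6 (adjusted p = 1.11e-05, exact binomial test), Rhox9 (adjusted p = 1.96e-06, the same exact test) and Rhox13, named after its values were seen (35 and 13 fragments, adjusted p = 0.016, the same exact test). With TMM-scaled library sizes, DESeq2 size factors or the GC trend 2 were lower and 0 higher. None of the 705 50-base words of the longest Rhox5 transcript occurred in a transcript of another gene, and the other Rhox genes were not searched in this way.

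Subunits of PRC1.6 and genes of DNA and H3K9 methylation were read in the same way, and their action on the germline genes was not measured. Of 11 PRC1.6 subunits, 10 reached 1 TPM with either length, and their exonic-length median was 139 TPM. The one below was Ring1, with 9 and 1 fragments, named after its values were seen. Mga, the E-box binding scaffold of the complex, had 226 and 255 TPM, Rnf2, its ubiquitin ligase, 285 and 389 TPM, and Pcgf6, its defining subunit, 232 and 250 TPM. All 12 genes of DNA methylation and H3K9 methylation reached 1 TPM, with a median of 51.3 TPM. Hells, a remodeller needed for DNA methylation, had 744 and 1076 TPM, Tet1, which oxidises methylated cytosine, 148 and 169 TPM, and Uhrf1, which brings Dnmt1 to replicating DNA, 116 and 122 TPM.

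Marker lists of other cell types were read beside the germline genes. All 7 primordial germ cell markers reached 1 TPM with either length, and they included genes that ES cells also use. Their sum was 254 TPM in replicate 1 and 191 TPM in replicate 2 per exonic length, of which Dppa3 had 96.6 and 33.8 TPM, Tfap2c 29.6 and 25.7 TPM and Prdm1 31.2 and 35.8 TPM. Of 15 markers of late germ cells, sperm proteins and oocyte genes among them, 4 reached 1 TPM, 6 had no fragment in either library, and the sum was 11.2 and 7.70 TPM. The 6 at 0, named after their values were seen, were the sperm genes Prm1, Prm2, Tnp1, Tnp2 and Pgk2 and the oocyte gene Zp1. Ddx25, Acr and Figla were each at 3.28 TPM or less per exonic length in both libraries. Of 12 fibroblast markers 2 reached 1 TPM per exonic length, Thy1 and Col5a1, and the sum was 5.84 and 2.45 TPM. Pdgfra, a receptor of mesenchymal cells, had 0.471 and 0.321 TPM, and Lum, named after its values were seen, had no fragment in either library. In contrast, 11 of 12 ES cell markers reached 10 TPM with either length, where 29.6% (deposited) and 34.1% (exonic) of all genes did, with sums of 5121 and 4451 TPM, led by Tdgf1, Nanog and Zfp42. The sum of the 10 germline genes was 633 and 753 TPM on the same scale. The part of fibroblasts or germ cells in the germline values was not tested.

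**Figure D4:**
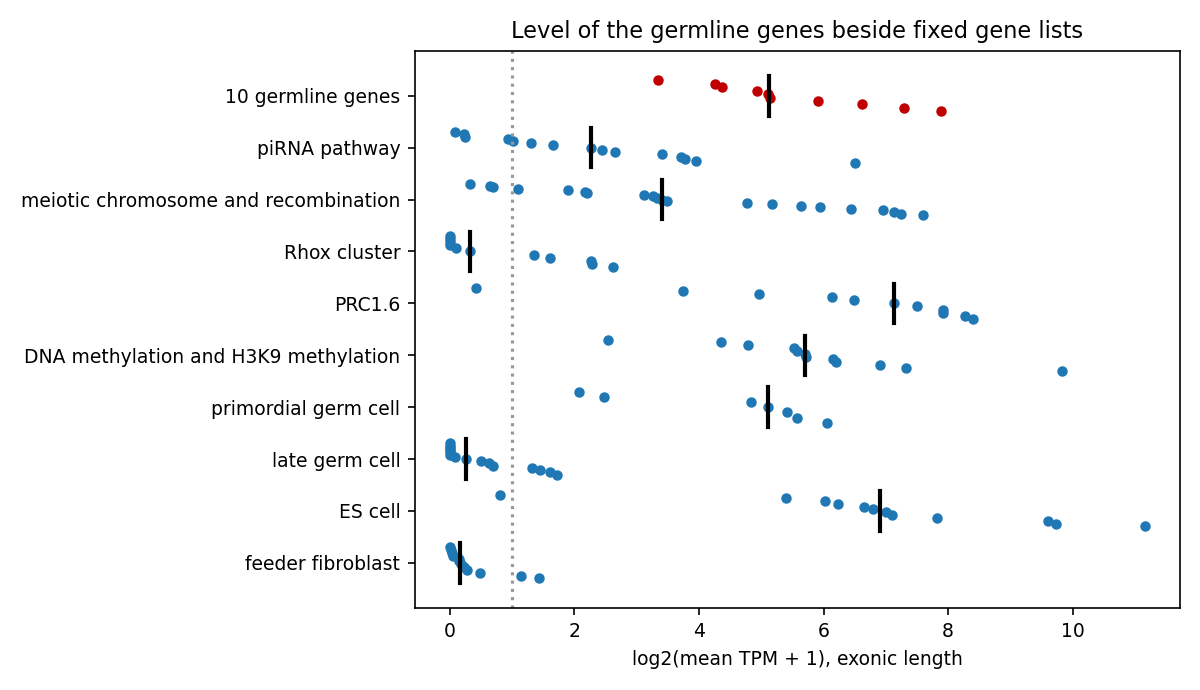
Level of each gene as log2(mean TPM + 1) with exonic length (horizontal axis) for the 10 germline genes (red) and 9 fixed gene lists (blue), with a black bar at each list's median and a dotted line at 1 TPM. The germline genes lie between 9.20 and 237 TPM, above all late germ cell and fibroblast markers and near the primordial germ cell markers, and height within a row carries no value.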

How the data were processed

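Polyadenylated RNA of 2 replicates of 1 group was analysed, so no condition was compared. The deposited values are raw counts made by the authors with featureCounts (1.5.2 per the file headers), reverse-stranded, over transcript features of an mm10 annotation, so that fragments in introns were counted too. Starts are given as in that table. The submitters' processing notes name Bowtie2 2.3.2 and STAR 2.4.2a. The study's methods, written for chromatin RNA, use them to discard rRNA reads and to align the rest uniquely to an mm10 genome with masked SNPs. The gene length is the deposited length column. Columns were matched to samples by name. Labels do not say whether replicates were separate cultures. The p-values weigh the difference between the 2 libraries against counting error only.

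TPM was computed from the deposited counts and averaged as in the study's methods. Exonic length was the union of GENCODE M21 basic exons (GRCm38), matched for 21252 genes by symbol and 864 by an older symbol (98.0%). The exact binomial test (scipy 1.17.1) used a threshold of 0.05 over genes with at least 10 fragments in total. It was tried on simulated counts with known changes and counting error only, which leaves out any other spread between libraries. Log2 ratios were taken after adding 0.5 counts. TMM factors came from edgeR 4.0.16 and size factors from DESeq2 1.42.0. Intervals are not given, and floors of 3 counts cover counting error only.

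The members and lists were chosen with earlier results of these data known. Named genes are all members, their relatives, and the 3 genes with the highest deposited-length TPM of each fixed list. Others were named after their values were seen, as stated there. Meioc and Rhox7a were listed but not found.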

Additional observations from a re-analysis of the deposited data

How the results depend on the processing

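Among the alternatives over counts, order, levels and replicate differences, 121 left a result as it was, 49 moved it and 7 brought a replicate difference past the threshold. All 10 genes reached 1 with the exonic length, CPM (53.3% of all genes), either replicate alone and TPM divided by TMM factors (added after the data were seen), but 3 did with TMM factors as RPKM, where 23.9% of all genes did. RPKM is not rescaled to a fixed sum, and 1 RPKM was worth 17.0 TPM here. The number reaching 10 was 9 with the exonic length, 10 with CPM (33.0% of all genes), 1 with RPKM (4.59%) and 4 to 6 with 1 replicate left out. Between 7 and 10 genes differed between replicates over 5 alternatives, 10 with TMM or DESeq2 factors and 8 with the GC trend. Of all genes tested 60.8% differed by library totals, 57.7% with TMM, 57.8% with DESeq2 factors, 45.6% with the GC trend, 48.5% with no minimum count and 65.2% with at least 10 counts in each library. Members that came to pass were Ddx4, Mov10l1 and Taf7l with either set of factors, and Mov10l1 with the GC trend. Of the 10 rank positions, 3 were the same with the exonic length, 4 with CPM, and 3 to 8 with 1 replicate left out. Counts for the fixed lists, tried under settings added later, moved in 7 cases and stayed in 23, and counts of markers and Rhox genes lower in replicate 2, also added later, moved in 9 and stayed in 16. No paired analysis was possible because both libraries belong to 1 group.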
